A study of Mus musculus with 24 samples.

Results

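The ribosomal proteins of the cytosolic ribosome were described here as a gene family in tumors grown from TC2Ras cells in mice. The family was taken by a rule on names: protein-coding genes in the GENCODE M21 annotation whose symbol starts with Rps or Rpl and is followed only by a number with at most one of a few letters, or that belong to the stalk genes. The rule found 79 of the 55401 genes counted, which were 30 genes of the small subunit, 46 of the large subunit and 3 of the stalk. Rpsa and Rps3a1 encode ribosomal proteins but their symbols fall outside the rule. The genes were selected by name, but the family as such was chosen by measured values, namely the levels of its genes in the subcutaneous tumors, which had been seen to differ with GC content. The values of that comparison are therefore given as a description.

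RNA was sequenced from 24 tumors in 10 groups. All mice were male C57/BL6 mice of 8 to 10 weeks. TC2Ras cells are a mouse prostate adenocarcinoma line, made from TRAMP-C2 cells with lentiviruses that carry activated H-Ras and the mouse androgen receptor, and the intratibial tumors grew from TC2Ras-Luc cells, which also carry luciferase. Every mouse received a plasmid in muscle by sonoporation, either empty or encoding the cytokine IL-27. In the subcutaneous model, 300000 cells per tumor were implanted and 2 control and 2 IL-27 tumors were taken at day 7. In the intratibial model, 100000 cells per tibia were implanted, and mice received by gavage either the kinase inhibitor cabozantinib (cabo, 30 mg/kg) or only the 15% PVP in which it was suspended. Dosing was daily over the first 2 weeks after implantation, so the EOS groups named for cabo are tumors taken after dosing had ended. At day 14 there were 3 tumors in each of 4 groups (IL-27+cabo, cabo, IL-27 and a control with empty plasmid and PVP), and at the end of the study (EOS) 2 in each. EOS was the ethical endpoint of each mouse and not a fixed day, and the labels give no day for it. The paper reports longer survival with cabo and with IL-27+cabo than in the controls. Treatment and age of the tumor at EOS therefore cannot be told apart. The plasmid acts from muscle and not from the tumor cells, and each tumor is a mixture of implanted and host cells. The subcutaneous and the intratibial libraries carry different number prefixes in their library names, so site and set of libraries cannot be told apart. Nothing says that the subcutaneous tumors of a group came from separate mice.

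Ribosomal proteins assemble with ribosomal RNA into the small subunit, which reads the mRNA, and the large subunit, which forms the peptide bond. Their mRNAs are among the most abundant of a growing cell, and most begin with a cytosine followed by a run of pyrimidines, the terminal oligopyrimidine motif, through which mTOR signaling and the RNA-binding protein Larp1 control their translation together. The mRNAs are short, and the genome holds many processed pseudogenes of them.

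The stalk proteins and a few others have roles beyond the core. Rplp0 anchors the dimers of Rplp1 and Rplp2 that recruit translation factors, Rps6 is the target of the S6 kinases, Rps27a is made as a fusion with ubiquitin, and Rpl5 and Rpl11 bind Mdm2 when ribosome assembly fails. Rpl3l is the copy of Rpl3 used in striated muscle.

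The start sites of the family in RefSeq (build GRCm38.p6) are shown because they carry the feature that the rule did not use. Of the 79 genes, 59 had at least 1 start site in the table, with 71 start sites in all. The 5-letter motif searched was a C at the start site followed by 4 letters that are each C or T, on the strand of the gene. It stood at 13 of the 71 start sites (18.31%) and at 823 of all 32851 start sites (2.51%). The genes with it were Rpl14, Rpl15, Rpl28, Rpl35, Rpl35a, Rpl38, Rplp2, Rps6, Rps10, Rps15a, Rps18, Rps21 and Rps27. The motif was looked for only at the exact annotated base, and a start placed a base away has no match. The genes with the longest runs are shown from 15 bases before the start to 15 bases from it on, with the run in capitals. Rpl15 lies on the minus strand at chr14:18270972-18271001, Rpl35 on the minus strand at chr2:39005117-39005146, Rps10 on the minus strand at chr17:27635230-27635259 and Rps18 on the minus strand at chr17:33955651-33955680.
Rpl15: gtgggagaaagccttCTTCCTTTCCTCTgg
Rpl35: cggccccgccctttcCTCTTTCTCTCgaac
Rps10: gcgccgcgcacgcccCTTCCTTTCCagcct
Rps18: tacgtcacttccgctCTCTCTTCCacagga

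The coding parts of the genes differ in GC content, and the first 60 bases are shown for genes at the low and at the high end of coding GC content of the 76 abundant genes (those with a median of at least 100 counts), since the subcutaneous values below followed this property. Bases are from the GENCODE M21 transcripts (build GRCm38), with G and C in capitals and each run starting at the start codon. Rpl30 (chr15:34440505-34443640, minus strand, 4 exons) has a coding GC content of 44.93%, Rpl39 (chrX:37082520-37085402, minus strand, 3 exons) of 45.1% and Rps15a (chr7:118104372-118116188, minus strand, 5 exons) of 45.9%. Rpl18 (chr7:45715457-45720836, plus strand, 6 exons) has 59.22% and Rpl36 (chr17:56613416-56614243, plus strand, 4 exons) 61.59%.
Rpl30: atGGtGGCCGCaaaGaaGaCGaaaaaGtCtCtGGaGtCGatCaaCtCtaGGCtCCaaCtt
Rpl39: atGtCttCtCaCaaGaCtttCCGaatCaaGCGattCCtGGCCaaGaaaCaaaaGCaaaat
Rps15a: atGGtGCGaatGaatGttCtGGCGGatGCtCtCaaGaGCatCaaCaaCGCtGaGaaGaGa
Rpl18: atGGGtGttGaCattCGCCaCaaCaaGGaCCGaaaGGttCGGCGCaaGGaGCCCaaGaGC
Rpl36: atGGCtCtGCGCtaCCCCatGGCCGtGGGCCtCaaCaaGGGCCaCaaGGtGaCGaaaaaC

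Libraries held 63729005 to 83782258 counts. Levels are given as CPM, counts scaled to a common library size by TMM, a method that equalises the bulk of genes between libraries. Of the 79 genes, 78 passed a filter on low counts over all libraries, 76 had a median of at least 100 counts, and Rpl10l had no count in any library. The 3 genes under 100 counts were Rpl10l, Rpl39l and Rpl3l. The library of mouse 20, an IL-27+cabo tumor of day 14, stood apart from the rest, and the comparisons that hold it are also given without it. Its correlation with the other 2 libraries of its group over all tested genes was 0.91 for both, where those 2 correlated at 0.98.

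The share of all counts that fell on the family ranged from 2.6% to 4.65% in the 19 intratibial libraries other than mouse 20, and was 12.3% in mouse 20. In the subcutaneous tumors it was 6.43% and 3.34% in the controls and 1.93% and 2.29% with IL-27. The family therefore took its lowest shares of the series in the IL-27 subcutaneous tumors. Mean log2 CPM over the 78 genes was 7.40 to 8.21 in the 19 intratibial libraries without mouse 20, and 10.16 in mouse 20. It was 8.88 and 7.76 in the subcutaneous controls, and 6.23 and 6.32 with IL-27.

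At day 14 the mean of the control tumors was 7.75 ± 0.23 (SD, n = 3), with IL-27 it was 7.99 ± 0.33, with cabo 7.49 ± 0.031 and with IL-27+cabo 8.35 ± 1.57, where mouse 20 set both the mean and the SD. At EOS the controls had 7.88 ± 0.12 (SD, n = 2), IL-27 tumors 7.59 ± 0.13, cabo tumors 7.58 ± 0.057 and IL-27+cabo tumors 7.50 ± 0.145. The order of the EOS groups other than the controls cannot be told from these spreads.

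**Figure D1:**
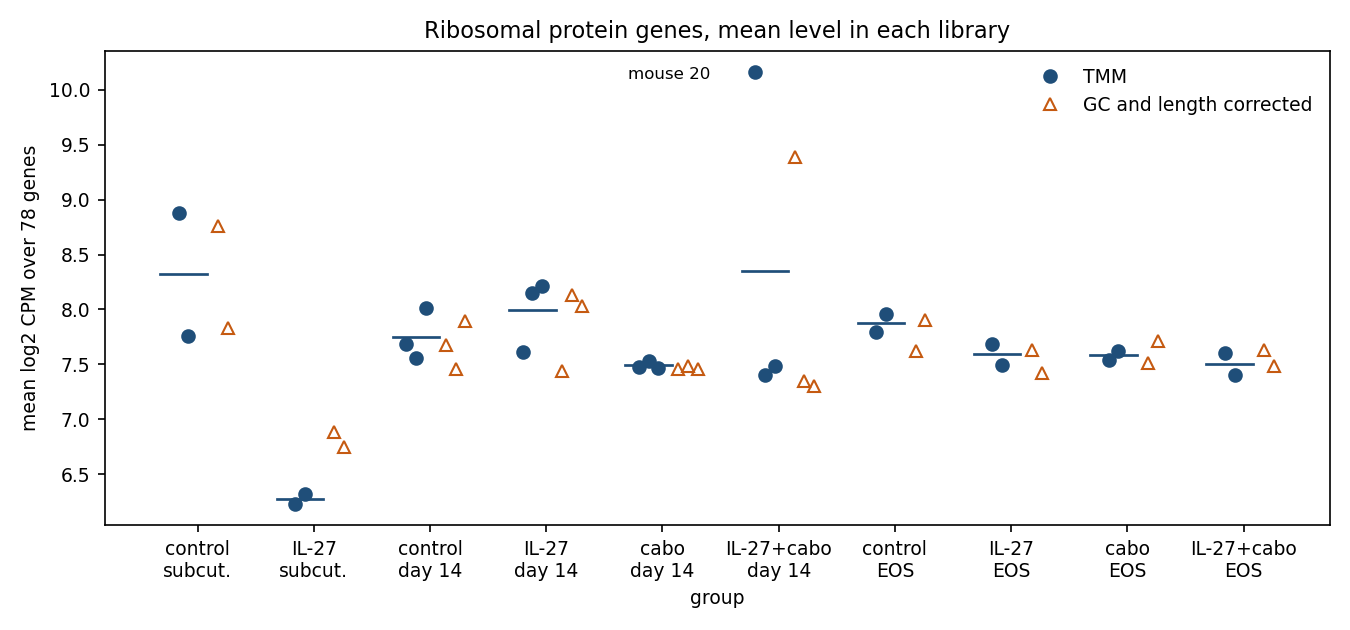
Mean log2 CPM of the 78 ribosomal protein genes that passed the filter (y axis) in each of the 24 libraries, by group (x axis). Filled circles are TMM values with the group mean as a line, and open triangles are values after a correction for transcript GC content and length. The IL-27 subcutaneous libraries are the lowest at 6.23 and 6.32, and mouse 20 is the highest at 10.16 and remains so at 9.39 after the correction.

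Within the intratibial tumors the order of the genes by level per kb of transcript was led by Rplp0, the stalk anchor, with a mean of 2433 CPM per kb over the 20 libraries. Rps2 of the small subunit followed with 2023 and Rpl8 of the large subunit with 1806. Over the 19 libraries other than mouse 20 the values were 2288, 1699 and 1493, in the same order. The lowest levels per kb were those of Rpl3l at 0.98 (0.646 without mouse 20), Rpl39l at 0.015 and Rpl10l at 0. Levels per kb use the main annotated transcript, which for Rps20 is 3706 bases long against a coding length of 357 bases, so its 44.0 CPM per kb is low by construction. The copies Rpl10l and Rpl39l are known from testis, and their counterparts were well measured: over the same 20 libraries Rpl10 had a mean of 1229 and Rpl39 of 52.1 CPM, and without mouse 20 these were 1141 and 41.4 CPM.

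Levels of most genes varied little across the 19 intratibial libraries other than mouse 20. The coefficient of variation of CPM over these libraries had a median of 21.3% over the 76 abundant genes, and it was under 30% for 74 of them. Rpl31 varied least at 13.9%. Rpl17, at 64.6%, and Rps27, at 34.0%, varied most. Rpl17 ranged from 53.3 to 401.5 CPM without following the groups: the controls of day 14 had 401.5, 175 and 128 CPM.

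Reads from processed pseudogenes bear on a few of the genes. Of the 79, 58 had pseudogenes named after them in the annotation. The pseudogenes of Rpl17, 11 in number, held 44.6% to 91.1% of the counts of gene and pseudogenes together, with a median of 77.2%. The median was 66.4% for Rpl21, 42.6% for Rps12 and 39.4% for Rpl7a, and it exceeded 20% for 7 genes. Values of these genes are uncertain, since the counting could split reads between near-identical copies. In all libraries together the named pseudogenes took 0.158% to 0.612% of counts.

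In the subcutaneous tumors, the family had lower levels with IL-27 than in controls, and the difference was not even. Some genes were lower by over 100-fold while others lay at control level. The median log2 fold change over the 78 genes tested was -1.96, beside 0.04 over all 19360 genes tested, with a range over the 76 abundant genes from -9.50 (Rpl36) to 1.20 (Rpl17). In edgeR's test 45 of the 78 were lower and 1 was higher, where 16.5% of all genes tested were lower and 3.52% higher. Of the 78 genes, 63 had a log2 fold change below 0, beside 48.8% of all genes, and 53 lay below the controls without overlap, beside 35.2%. These counts describe the contrast that led to the choice of the family, and no test is read from them. In bulk tumors, fewer cells of a type and less RNA per cell cannot be told apart. Counts of mitochondrially encoded genes were 8.52% and 8.45% of all counts with IL-27 and 5.96% and 4.46% in the controls. The median log2 CPM of the tested genes was 1.59 and 1.81 with IL-27 and 2.30 and 2.36 in the controls. The part of either in these values was not tested.

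The genes with the largest differences belonged to both subunits and to the stalk. Rpl36, a large subunit protein, had 84.1 and 46.5 CPM in the controls and 0.169 and 0 CPM with IL-27, which are 14 and 0 counts. Rpl29, also of the large subunit, had 515 and 275 CPM in the controls against 2.01 and 1.68. Rps15 of the small subunit had 1176 and 442 CPM against 12.1 and 12.45. The groups were far apart for all of these.

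The stalk genes were low as a set. Rplp0 had 5009 and 2397 CPM in the controls and 90.0 and 99.0 with IL-27, a log2 fold change of -5.27. Rplp1 had 244 and 254 CPM against 3.74 and 3.79, a log2 fold change of -6.03. Rplp2 had 172 and 92.5 CPM against 4.43 and 3.10, a log2 fold change of -5.10. The groups did not overlap for any of the 3.

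Genes with known roles outside the core did not share a value. Rps6 had 1964 and 932 CPM in the controls and 701 and 844 with IL-27. Rpl11 had 761 and 309 CPM in the controls against 110 and 125. Rpl5, its partner in binding Mdm2, had 2549 and 1117 CPM in the controls and 1885 and 2085 with IL-27, so the groups overlapped and the log2 fold change was 0.14. Rps27a, the ubiquitin fusion, had 780 and 342 CPM against 517 and 632, also with overlap. Rpl11 thus lay apart between the groups while Rpl5 did not, and the coding GC content of Rpl5 is 46.02%.

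The size of the difference followed the GC content of the coding part. Across the 76 abundant genes the log2 fold change had a Pearson r of -0.84 and a Spearman rho of -0.86 with coding GC content, and an r of -0.69 with transcript GC content. With log2 coding length r was 0.09. These are descriptions over genes of the same 4 libraries and are not independent points. When the 76 genes were ordered by coding GC content and split into 4 sets of 19, the lowest set (44.9% to 49.7%) had a median log2 fold change of 0.06 and the next (50% to 52.7%) of -1.11. In the set from 52.7% to 55.8% it was -3.01, and in the top set (55.9% to 61.6%) it was -5.10, a 34.4-fold lower level. The genes printed above from the low end, Rpl30, Rpl39 and Rps15a, had log2 fold changes of 0.02, -0.10 and 0.12, and those from the high end, Rpl18 and Rpl36, had -5.68 and -9.50.

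**Figure D2:**
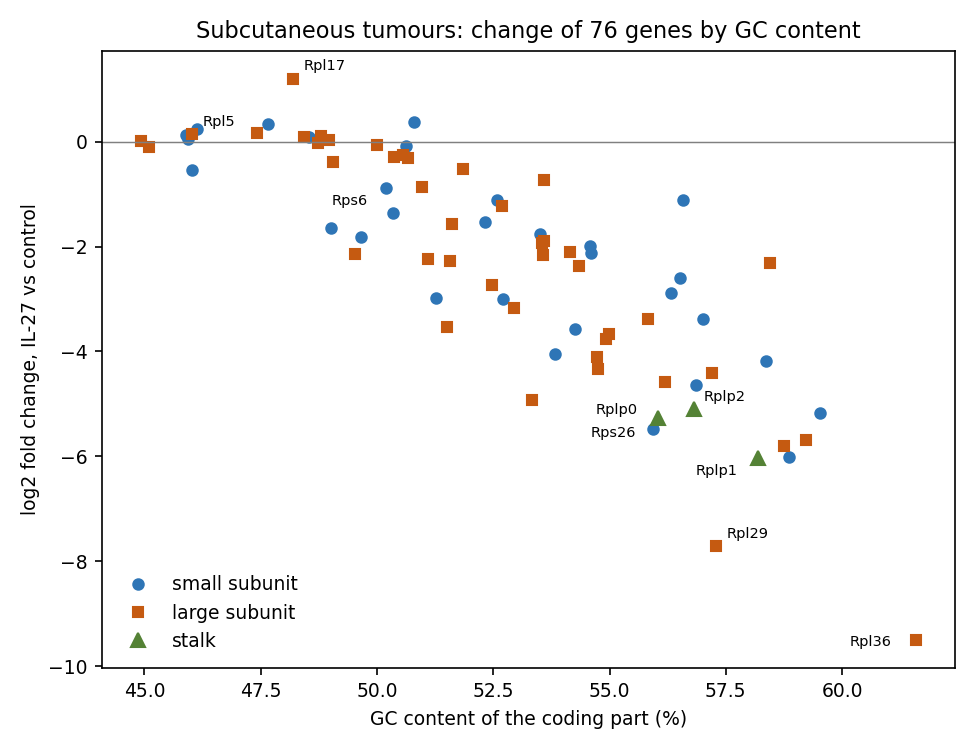
Log2 fold change of IL-27 against control in the subcutaneous tumors (y axis) by GC content of the coding part in percent (x axis) for the 76 abundant ribosomal protein genes. Circles are small subunit genes, squares large subunit genes and triangles the stalk genes. The 19 genes of lowest GC content have a median of 0.06 and range from -2.13 to 1.20, and the 19 of highest GC content have a median of -5.10.

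The same direction was present in all genes. Over the 19334 tested genes with a transcript, the log2 fold change had an r of -0.59 with transcript GC content. Split into 4 equal bins by transcript GC content, the bin with the highest GC content (54.5% and over) had a median of -2.10 over all its genes and of -4.38 over its 20 abundant ribosomal protein genes. In the bin from 49.8% to 54.5% the medians were -0.39 over all genes and -1.99 over 31 ribosomal protein genes. From 45.2% to 49.8% they were 0.38 and -0.03, the latter over 21 ribosomal protein genes, and below 45.2% they were 0.86 and -0.22, the latter over 4. The median of the family was the lower one in each of the 4 bins.

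After a correction of each library for transcript GC content and length, the median over the family was -1.18 and 34 genes were lower in the test, of which 33 were among the 45 lower without it. In that fit 7.43% of all genes passed in either direction. Rpl36 then had -6.33, Rps26 -5.68 and Rpl29 -5.01. Rps19, at -2.88 before the correction, had 0.19 after it. The relation with coding GC content was still present after the correction, with r = -0.61. The transcript of Rps26 has a GC content of 48.6% and its coding part one of 55.9%.

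The control tumors differed from each other too. Subcutaneous control 1 had higher CPM than control 2 for 73 of the 76 abundant genes, by a median of 1.17 on the log2 scale, beside 0 over all genes tested. Without control 1, the median log2 fold change of the family was -1.29 and 39 genes were lower in the test, where 10% of all genes passed in either direction. The spread in that fit comes from the IL-27 pair, and the lone control was assumed to vary like it.

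Beside Rpl17, the genes of the family that lay above the controls without overlap were Rpl3l and Rpl39l, both of low counts. Rpl3l, the striated muscle copy of Rpl3, had 0 counts in both controls and 122 and 91 counts with IL-27, a mean of 1.32 ± 0.21 CPM (SD, n = 2), which was at least 33.1-fold higher against a floor of 3 counts per library. Rpl39l had 0 counts in the controls and 14 and 11 with IL-27. Rpl3, the counterpart of Rpl3l, had 2377 and 1139 CPM in the controls against 558 and 603. The 12 skeletal muscle genes of a fixed list had a mean log2 CPM of -0.31 and -2.73 in the controls and 5.59 and 4.49 with IL-27, and 11 of them were higher in the test. Rpl3l and Rpl39l were at 0 in the controls, so both entered the test through the group where they are high. The part of muscle RNA in the Rpl3l value was not tested.

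Other genes of protein synthesis were taken from fixed lists. Of all genes tested in this comparison, 16.5% were lower and 3.52% higher. Of 7 ribosomal proteins outside the name rule, none was higher in the subcutaneous IL-27 tumors and 3 were lower, among them Fau (-4.21 ± 0.55 SE, edgeR adjusted p = 0.00297) and Rack1, the signaling scaffold of the small subunit (-2.02 ± 0.42, adjusted p = 0.0169). Of 15 translation factors and other genes with the same start motif, 2 were lower, which is near the share over all genes. They were Eef2, the elongation factor of translocation (log2 fold change -4.71), and Eef1d, a subunit of the elongation factor exchange complex (-3.28). Of 27 ribosome biogenesis genes 10 were lower, among them Tcof1 (-4.55), Bop1 (-4.10) and Nhp2 (-3.23), with a list median of -0.59. Of 78 mitochondrial ribosomal proteins 27 were lower and none higher, with a median of -1.01, and of 72 nuclear OXPHOS subunits tested 28 were lower and none higher, with a median of -1.09. After the GC and length correction, 4 of the biogenesis genes, 11 of the mitochondrial ribosomal proteins and 19 of the OXPHOS subunits were lower. Of all genes, 7.43% passed in either direction there. The counts of the ribosomal proteins outside the name rule and of the translation factors were 3 and 2 with the correction too, and 1 gene each of the biogenesis and OXPHOS lists was higher.

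In the regulators' list, 3 of 9 genes were lower in these tumors, where 16.5% of all genes tested were lower and 3.52% higher. They were Rptor, the scaffold of mTOR complex 1 (-2.83), Eif4ebp1, the translation repressor that mTOR phosphorylates (-3.52), and Trp53 (-1.53). After the correction 1 was lower and 1 higher. Of the other cell type lists, 5 of 6 marrow myeloid genes tested were higher, with a median of 5.28. That list had very low counts in the controls, with a mean log2 CPM of -3.4 and -3.0, against 1.0 and 1.3 with IL-27. Of 6 macrophage genes 3 were lower, with a median of -1.45. Of the 6 erythroid genes 2 were higher (median 1.13), of the 6 T cell genes 2 were higher (median 1.88) and of 4 fibroblast and osteoblast genes 2 were lower (median -0.996). Of 6 endothelial genes (median 1.20) and 6 cycling cell genes (median -0.02) 1 each was lower, which is near the share over all genes. Of 5 prostate epithelium genes tested 1 was lower, Krt8, at 3.05 mean CPM against 44.1 in controls. The median of that list was -0.07. After the GC and length correction no gene of the macrophage, fibroblast and osteoblast, endothelial, cycling cell or prostate epithelium lists passed the test. Of all genes, 7.43% passed in either direction in that fit. The macrophage median was then -0.27, and that of the fibroblast and osteoblast list turned to 0.54. The 5 myeloid, 2 erythroid and 2 T cell counts stayed the same in number. The part of these cell types in the values of the family was not tested.

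At day 14 in the tibia, no difference of the family between IL-27 and control beyond the spread of the tumors was detected. The median log2 fold change was 0.27 over the 76 genes tested, beside 0.02 over all 18519 genes. Of the 76 genes, 73 had a log2 fold change above 0, where 53.6% of all genes did. No gene of the family passed edgeR's test at an adjusted p of 0.05 or at an unadjusted p of 0.05, where 0% and 2.76% of all genes did. None lay above or below the controls without overlap, beside 3.36% of all genes above and 4.43% below. DESeq2 called none of them either. Mean log2 CPM was 7.61, 8.15 and 8.21 in the IL-27 tumors and 7.69, 7.56 and 8.01 in the controls, so the groups overlapped. Rpl36, the most divergent gene under the skin, had 43.5, 64.4 and 70.0 CPM with IL-27 and 43.3, 44.7 and 54.0 in the controls. Rplp1 had 228, 428 and 425 CPM against 285, 258 and 351. All 12 skeletal muscle genes were above 0 (median 3.53). All 6 T cell genes (median -1.1), 6 macrophage genes (median -0.43) and 5 erythroid genes tested (median -0.66) were below 0. No gene of these lists passed the test. The mean log2 CPM of the muscle genes was 0.74, 2.10 and 6.91 with IL-27 and -1.40, 3.07 and 0.64 in the controls. The part of these cells in the values of the family was not tested.

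With cabo at day 14 the abundant genes of the family had mean levels below those of the controls, by a small step. All 76 had a log2 fold change below 0, from -0.61 to -0.12, where 51.1% of all 18627 genes tested were below 0. The median over the 77 genes tested was -0.35, a fold of 0.78 for a gene such as Rplp0, beside -0.01 over all genes. None of the 76 passed edgeR's test, and the smallest adjusted p among them was 0.103 (Rps16). At an unadjusted p of 0.05, 52 of 77 were lower, beside 9.27% of all genes, and 58 of 77 lay below the controls without overlap, beside 12.9% of all genes. DESeq2 called 18 of them lower at an adjusted p of 0.05, where it called 7.97% of all genes in either direction. Mean log2 CPM of the family was 7.48, 7.53 and 7.47 with cabo and 7.69, 7.56 and 8.01 in the controls. Control 7, the highest, thus added much to the size of the step. After the GC and length correction the median of the family was -0.27. Its mean log2 CPM was then 7.46, 7.49 and 7.46 with cabo and 7.68, 7.45 and 7.89 in the controls, so that control 5 lay below all 3 cabo tumors.

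The step differed in size between genes. Rplp0 had 2589, 2713 and 2553 CPM with cabo and 3321, 2719 and 4051 in the controls, a log2 fold change of -0.37 ± 0.15 (SE). Rps16 had 97.7, 89.8 and 90.2 CPM against 120, 114 and 159, at -0.51 ± 0.13. Rps12 was lower still, at -0.61 ± 0.16, but is one of the genes that share reads with pseudogenes. For Rplp0 and Rps16 the cabo tumors lay close together while the controls spread, and control 5 was the nearest to the cabo tumors. Without control 5, edgeR called 13 genes of the family, all lower, where 3.06% of all genes passed in either direction. Without control 3, control 7 or any of the 3 cabo tumors it called 0 genes of the family lower.

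Rpl3l was the 1 gene of the family that passed edgeR's test with cabo at day 14, and it entered the test through the cabo tumors, where it is high. It had 54, 193 and 117 counts (0.8, 2.7 and 1.7 CPM) with cabo and 0, 6 and 7 counts in the controls, a log2 fold change of 4.84 ± 0.85 (SE, edgeR adjusted p = 0.0368, n = 3 per group). In edgeR, 1.89% of all genes tested passed. The adjusted p rose to between 0.063 and 0.136 without any of the 3 cabo tumors, to 0.0645 without control 5 and to 0.102 without control 7, and it stayed at 0.0356 without control 3. All 12 skeletal muscle genes had values above 0, the median being 4.38 on the log2 scale, and 5 of them passed the test, among them Myh4 (6.07) and Tnni2 (4.11). With the muscle score of each tumor in the fit, the log2 fold change of Rpl3l was 1.67 (adjusted p = 0.948), and the median of the family was -0.15. No gene of all 18627 passed in that fit. In the same comparison 4 of 6 T cell genes (median -1.80) and 3 of 6 endothelial genes (median -1.09) were lower, and 1 of 6 cycling cell genes, Cdk1, was lower (-0.53). The median over 5 erythroid genes was -2.40, with none past the test. Their part in the values of the family was not tested.

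**Figure D3:**
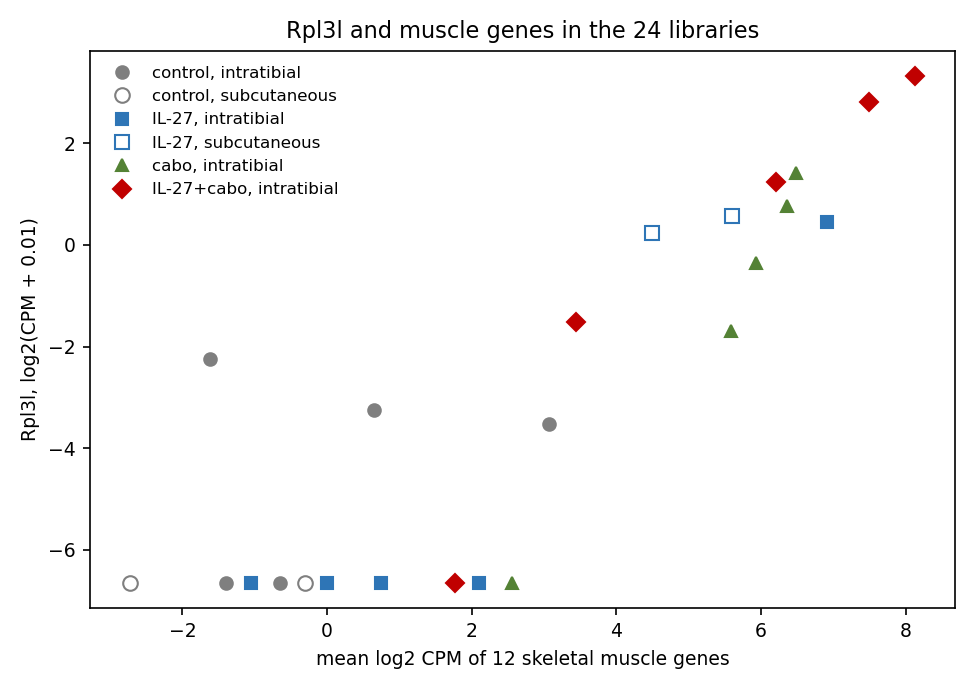
Rpl3l level as log2(CPM + 0.01) (y axis) by the mean log2 CPM of 12 skeletal muscle genes (x axis) in the 24 libraries, with open symbols for subcutaneous tumors. Points along the bottom are libraries with 0 counts of Rpl3l. The 2 highest values are those of mice 20 and 22 of the IL-27+cabo group of day 14, at 10.0 and 7.03 CPM.

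Genes of 4 protein synthesis lists outside the family lay mostly below 0 as well with cabo at day 14, and none passed the test. All 7 ribosomal proteins outside the name rule were below 0, with a median of -0.32, and all 15 translation factor genes, with a median of -0.31. The median was -0.09 over 27 ribosome biogenesis genes and -0.25 over 78 mitochondrial ribosomal proteins. The regulators' list did not share this: 2 of its 9 genes were below 0, with a median of 0.13 and none past the test. Of 71 nuclear OXPHOS subunits tested 65 were below 0, with a median of -0.21, and 1 passed the test as higher.

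With IL-27+cabo at day 14, the mean of the family rested on mouse 20. The median log2 fold change against control was 1.17, and without mouse 20 it was -0.42. Against cabo alone it was 1.51, and -0.067 without mouse 20. With mouse 20 kept and the muscle score of each tumor in the fit, both medians were below 0 too, as given in the last section. No gene of all tested passed in those fits. No gene of the family passed edgeR's test in either comparison with all libraries, where 0.0640% of all genes passed against control and 0% against cabo. Without mouse 20, 75 of 76 abundant genes had a log2 fold change below 0 against control, where 50.9% of all genes did, and 41 of the 77 tested were lower at an unadjusted p of 0.05, beside 6.02% of all genes. Rpl3l was the 1 gene of the family called without mouse 20, where 0.899% of all genes were, and it too entered through the group where it is high. In that comparison without mouse 20, 2 of 12 skeletal muscle genes were higher (median 5.12). Lower were 5 of 6 T cell genes (median -2.46), 3 of 6 endothelial genes (median -1.25) and 1 of 6 marrow myeloid genes (median -1.39). The marrow myeloid list had low counts, with a mean log2 CPM of -2.8 and -3.0 in mice 22 and 24. The median over 5 erythroid genes was -1.93, with none past the test. Their part in the values of the family was not tested. Rplp0 had 2424 and 2379 CPM in the other 2 tumors of the group and 7042 in mouse 20.

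**Figure D4:**
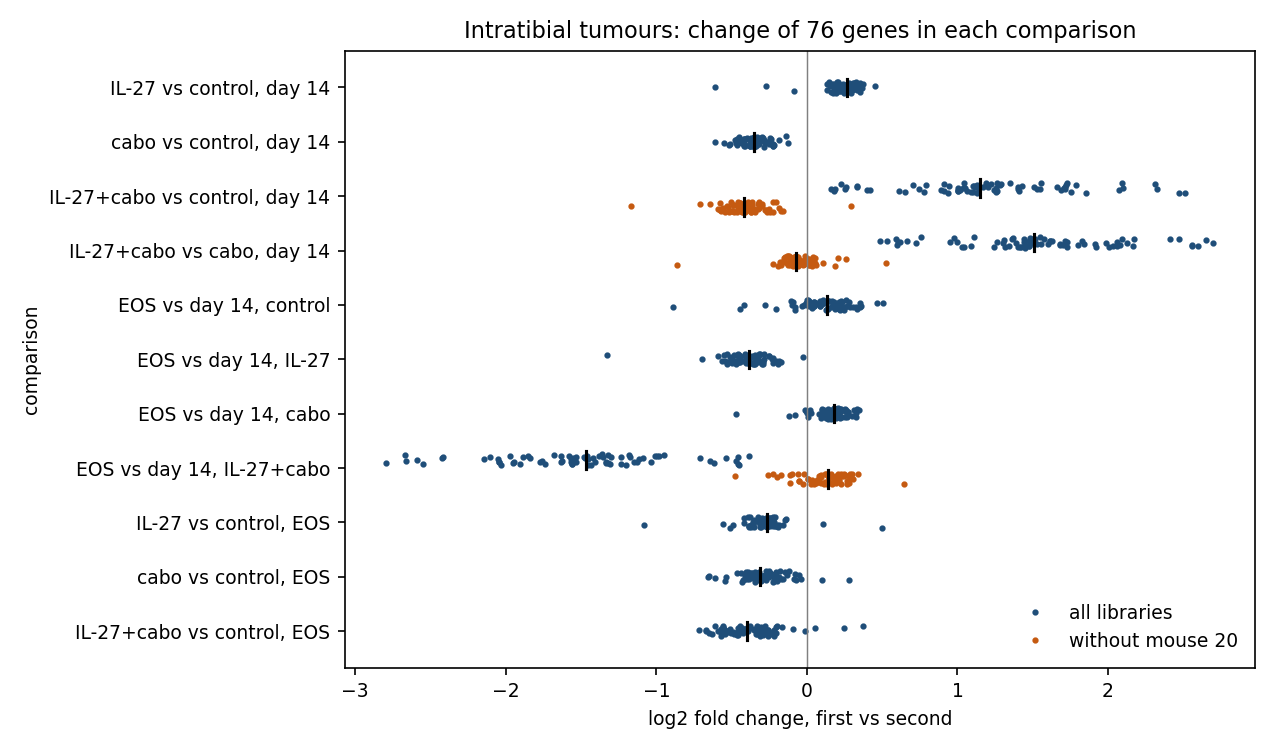
Log2 fold change (x axis) of the 76 abundant ribosomal protein genes in each of the 11 comparisons of intratibial tumors (y axis), one point per gene, with the median as a black line. Orange points leave out mouse 20, and the 3 medians affected go from 1.17 to -0.42, from 1.51 to -0.067 and from -1.47 to 0.14 over all genes of the family tested.

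Mouse 20 differed from mice 22 and 24 in all 76 abundant genes, by 1.21 to 4.13 on the log2 scale with a median of 2.78, beside -0.12 over all 22301 genes. All 76 were above every other intratibial library, where 27.4% of all genes were. Rpl36 had 625 CPM in mouse 20 against 34.2 and 37.2, and Rpl41, the shortest ribosomal protein, had 2204 against 118 and 155. Rpl4 had 3410 against 1438 and 1518, and Rpl3 had 2291 against 899 and 962. Both long genes were thus raised far less than the short ones.

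The size of the difference followed length. Over the 76 genes it had a Pearson r of -0.66 and a Spearman rho of -0.62 with log2 coding length. With log2 transcript length r was -0.44 and rho -0.47, and with coding GC content r was 0.35. These are descriptions over genes of 3 libraries. Over all genes, the bin with the shortest transcripts, of 4 equal bins, had a median difference of 0.95 and that with the longest -0.85. Of the fixed lists, the median difference was 1.76 over 78 mitochondrial ribosomal proteins, 2.64 over 74 OXPHOS subunits and 2.91 over the 7 ribosomal proteins outside the name rule. It was 0.63 over 15 translation factor genes and -0.34 over 27 ribosome biogenesis genes. Skeletal muscle genes were 0.83 higher in the median. The part of transcript length in the value of mouse 20 was not tested.

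**Figure D5:**
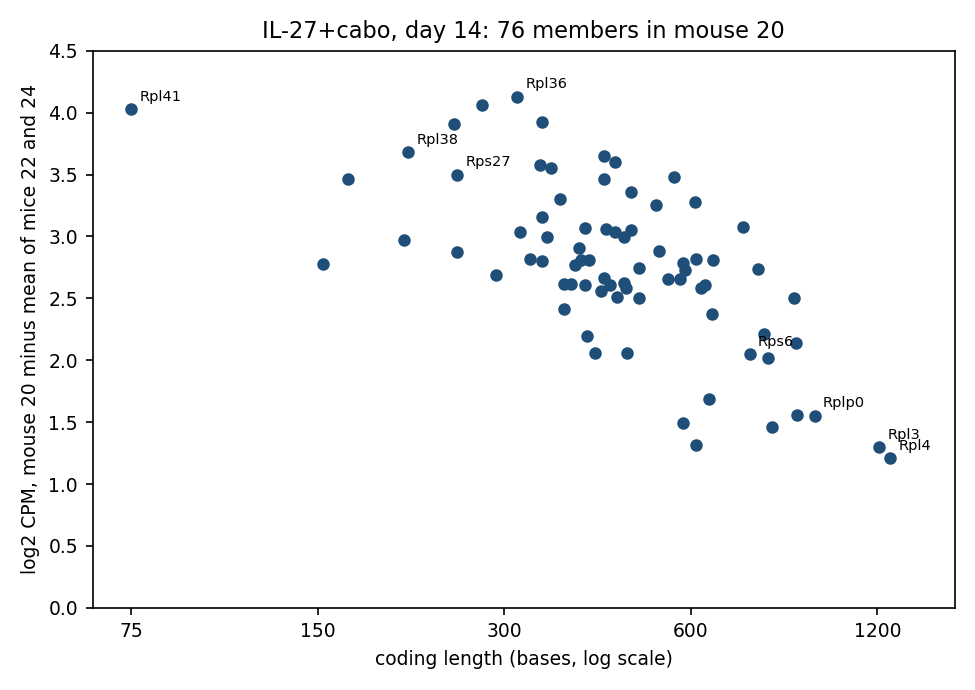
Difference in log2 CPM between mouse 20 and the mean of mice 22 and 24 (y axis) by coding length in bases on a log scale (x axis) for the 76 abundant ribosomal protein genes. Rpl41, with 75 bases, is at 4.03 and Rpl4, with 1257 bases, is at 1.21.

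From day 14 to EOS no gene of the family passed edgeR's test in any treatment. In controls the median log2 fold change was 0.14 and in cabo tumors 0.17, while in IL-27 tumors it was -0.38. Mean log2 CPM of the control tumors was 7.56 to 8.01 at day 14 and 7.80 and 7.96 at EOS. With IL-27 it was 7.61 to 8.21 at day 14 and 7.68 and 7.50 at EOS, so the times overlapped in both. The cabo value was 0.090 without EOS mouse 23 and 0.26 without EOS mouse 19. In IL-27+cabo tumors it was -1.47, and 0.14 without mouse 20. Of all genes, 0.104%, 2.09%, 0% and 0% passed in these 4 comparisons, in the order control, cabo, IL-27 alone and the combination. At an unadjusted p of 0.05 the counts were 5 of 76, 30 of 77, 6 of 76 and 1 of 77, beside 13.1%, 17.6%, 5.05% and 3.83% of all genes. In the cabo comparison 29 of the 30 were higher at EOS, beside 8.04% of all genes. Rps19 was the nearest to the threshold there, with 76.2, 76.9 and 80.1 CPM at day 14 and 92.9 and 104 at EOS (0.35 ± 0.07 SE, edgeR adjusted p = 0.0734). DESeq2 called 12 genes in that comparison, 11 of them higher, and 9.14% of all genes in either direction. Of the cell type lists with cabo, 4 of 6 endothelial genes were higher at EOS with a median of 1.24, and 2 of 6 T cell genes (median -3.07) and 1 of 6 macrophage genes (median -0.49) were lower. Of 5 erythroid genes 2 were higher with cabo, with a median of 1.91. In the controls 4 of 6 T cell genes were lower at EOS (median -2.57), and no gene of the other cell type lists passed. With IL-27 and with IL-27+cabo no gene of the cell type lists passed. Their part in the values of the family was not tested. Rpl3l, which entered the test through the day 14 tumors, had a log2 fold change of -3.47 ± 1.15 (SE, edgeR adjusted p = 0.19) with cabo. Skeletal muscle genes had medians of -1.54 with cabo, -5.86 with IL-27, -4.47 with IL-27+cabo and -2.63 in the controls, with none past the adjusted threshold, and their part in the Rpl3l value was not tested.

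At EOS all 3 treated groups had lower family levels than the 2 controls. These tumors were taken at the endpoint of each mouse, so their age may differ between the groups. The 3 comparisons share those 2 control libraries, so they are not independent of each other. Mean log2 CPM was 7.80 and 7.96 in the controls, 7.68 and 7.50 with IL-27, 7.54 and 7.62 with cabo and 7.60 and 7.40 with IL-27+cabo. All 6 treated tumors lay below both controls. After the GC and length correction 1 tumor of each treated group, at 7.63 with IL-27, 7.72 with cabo and 7.63 with IL-27+cabo, lay above the lower control at 7.62. The median log2 fold change of the family was -0.27 with IL-27, -0.31 with cabo and -0.39 with IL-27+cabo, beside -0.02, -0.01 and -0.0031 over all 20026 genes tested. With the correction the medians of the family were -0.19, -0.16 and -0.26.

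None of the 77 genes tested passed edgeR's test in any of the 3, and 0% of all genes did. At an unadjusted p of 0.05, 21 were lower with IL-27, 28 with cabo and 48 with IL-27+cabo, beside 1.68%, 4.36% and 6.80% of all genes. The groups did not overlap for 67, 66 and 68 genes in the same order, all lower, beside 16.5%, 22.3% and 22.6% of all genes. DESeq2 called 0, 1 and 20 genes of the family, all lower, where it called 0.115%, 1.35% and 4.63% of all genes in either direction. Rplp1 had 332 and 354 CPM in the controls, 306 and 263 with IL-27, 244 and 283 with cabo and 238 and 223 with IL-27+cabo. Its log2 fold change with IL-27+cabo was -0.55 ± 0.13 (SE, edgeR adjusted p = 0.188). Rps27, by contrast, had 13.1 and 30.9 CPM in the controls, so its values of 17.1 and 34.7 with IL-27+cabo lay across theirs. Rps27l, the copy of Rps27 known to respond to p53, had 15.4 and 17.2 CPM in the controls and 14.9 and 18.7 with IL-27+cabo.

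Medians by subunit at EOS were as follows, and their difference was not tested. With IL-27+cabo the median was -0.33 over the small subunit genes and -0.45 over the large subunit genes, and with cabo it was -0.30 and -0.32. The lists outside the family lay nearer to 0 in part: with IL-27+cabo the median was -0.45 over the 7 ribosomal proteins outside the name rule, -0.32 over the translation factor genes, -0.07 over ribosome biogenesis genes and -0.07 over mitochondrial ribosomal proteins. No gene of these 4 lists passed the test. Skeletal muscle genes had medians of 5.78 with cabo and 4.05 with IL-27+cabo, with none past the adjusted threshold. Medians over 5 erythroid genes were -1.88 with IL-27, -1.64 with cabo and -1.92 with IL-27+cabo, also with none past it. With cabo the median was -5.46 over 4 marrow myeloid genes, -1.82 over 6 T cell genes and 0.71 over 6 macrophage genes. The marrow myeloid list had very low counts, with a mean log2 CPM of -4.05 and -4.35 with cabo and -2.57 and -1.96 in the controls. With IL-27+cabo these were -2.09, -1.31 and 1.26, and with IL-27 they were -1.78, -0.05 and -0.06. Endothelial genes had medians of 0.74 with cabo, 0.69 with IL-27+cabo and -0.23 with IL-27. No gene of these 4 lists passed the test either. The part of these cells in the values of the family was not tested.

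No relation with GC content like that under the skin was seen in the tibia. In the comparisons with control that do not hold mouse 20, the r of the log2 fold change with coding GC content over the 76 genes was 0.16 at day 14 with IL-27 and -0.09 with cabo. At EOS it was -0.04 with IL-27, -0.12 with cabo and -0.13 in the combination. With log2 coding length r was, in the same order, -0.10, -0.33, -0.33, -0.12 and 0.01. With log2 transcript length it was -0.03, -0.13, -0.26, -0.12 and -0.04. After the GC and length correction the values for transcript length were 0.006, -0.56, -0.30, -0.47 and -0.41. The relation with transcript length was thus stronger after the correction with cabo and in the combination. Each is a description over genes that share their libraries.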

How the data were processed

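RNA of 24 mouse tumors was sequenced as stranded poly(A) libraries. The authors deposited raw counts per Ensembl gene, whole numbers with no normalization. Their methods name cutadapt, HISAT2 with the mouse genome, StringTie, DESeq2 and edgeR, while the submitters' processing notes name GRCh38, a human build. The program that made the counts, and the annotation it used, are not given in the sources used here. Gene names, types and transcripts came from GENCODE M21 (GRCm38), which holds 55141 of the 55401 genes. The main transcript of a gene was the best APPRIS rank and then the shortest, or the longest where no rank is given.

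The test was edgeR 4.0.16 under R 4.3.3 (filterByExpr, TMM, quasi-likelihood F test, two-sided, Benjamini-Hochberg over all genes tested), fitted on the groups compared or, at EOS, on the 4 EOS groups. DESeq2 1.42.0 was an alternative. The GC and length correction used natural splines of 5 degrees of freedom per property as offsets. Log2 CPM used a prior count of 2. The scripts were tested on simulated data. The alternatives were other size factors, no filter, all 24 libraries in 1 fit, added pseudogene counts, the muscle score, and leaving out each replicate. Levels per kb without mouse 20 were added after the data were seen.

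Named genes were the copies ending in l and their counterparts, the stalk genes, Rps6, Rpl5, Rpl11 and Rps27a, the extremes of level and GC content, and the called genes with the smallest p. Other genes named were chosen after their values were seen, and some list genes and sequences are not reported here. The members and lists were chosen with earlier results of these data known. Replicates are single tumors numbered by the labels. For the subcutaneous tumors nothing says that they came from separate mice, so the p-values there may measure technical spread. Total counts of 63729005 to 83782258 limit counting error only, and the number of tumors sets the precision.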

Additional observations from a re-analysis of the deposited data

Results flagged for a closer look

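The change with IL-27 differed between the subcutaneous and the day 14 intratibial tumors for 49 of the 78 ribosomal protein genes tested, all of them more negative under the skin. What flagged it was a test of the difference itself in edgeR, in which 23.5% of all 20977 genes passed. The median difference was -2.17 on the log2 scale. The subcutaneous comparison led to the choice of the family, so this is a description, and site, time and set of libraries cannot be told apart. In the same kind of edgeR test, no gene of the family was called for a difference between the change at EOS and that at day 14, where 0%, 0.0788% and 0.0788% of all genes were, in the order IL-27, cabo and the combination. At an unadjusted p of 0.05 the counts were 0, 0 and 17 of 77, beside 1.93%, 4.11% and 9.14% of all genes. Without mouse 20, a fit added after the data were seen, the combination had 0 of 77 called, where 0.154% of all genes were, and 0 of 77 at an unadjusted p of 0.05, beside 10.4% of all genes.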

How the results depend on the processing

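Of 276 values recomputed for the counts and medians of the 12 comparisons, 246 were labelled the same and 30 moved. A count was the same if equal or of similar size. A median was the same if it shifted by less than the spread of the family mean within groups. Sign was not part of that label. A reversal was looked for only where the main fit called genes of the family, and none was found there. Medians of the comparisons that hold mouse 20 changed sign without it. In the subcutaneous tumors the median was -1.18 with the GC and length correction, -1.10 with the replicate block and that correction, and -2.47 to -1.29 when each tumor was left out. The called genes then numbered 39 (16.3% of all genes called without IL-27 tumor 1, 13.8% without tumor 2) to 53 (24.9%, without control 2). Whether the shared replicate numbers pair the tumors is not known. The deviations of control 1 and IL-27 tumor 1 correlated at 0.02 over genes, and 1 such value cannot settle it. The replicate block alone gave 46 genes (21.9% of all genes) and a median of -1.83. For cabo at day 14 the count of 1 became 19 with DESeq2 (7.97% of all genes), and 0 without the filter, with all 24 libraries and with the muscle score, where the median was -0.15. It ranged from 0 to 13 over left-out tumors, beside 0.415% to 3.06% of all genes. For IL-27+cabo at day 14 the median was -0.33 with the muscle score and -0.42 to 1.58 over left-out tumors, DESeq2 called 1 gene (2.58% of all genes), and 0 to 1 were called over left-out tumors (0% to 0.899%). Against cabo the median was -0.16 with the muscle score and -0.067 to 1.91 over left-out tumors. From day 14 to EOS with cabo, the median was 0.24 with the correction and 0.090 (without EOS mouse 23) to 0.26 (without EOS mouse 19) over left-out tumors, with 12 genes in DESeq2 (9.14% of all genes) and 0 to 1 over left-out tumors (0.331% to 2.18%). With IL-27+cabo it was -1.90 to 0.14 over left-out tumors, and DESeq2 called 1 (1.68% of all genes). At EOS the median was -0.16 for cabo and -0.26 for IL-27+cabo with the correction, and DESeq2 called 1 and 20 (1.35% and 4.63% of all genes). The correction and the muscle score change the values by their construction, and otherwise the cause was not tested.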
